A study of Mus musculus with 6 samples.

Results

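The core histone genes of the mouse lie in clusters, named Hist1 to Hist4, and encode the proteins around which DNA is wound. Every gene of the table whose symbol names cluster 1, 2, 3 or 4 and the family H2A, H2B, H3 or H4 was taken, and linker H1 genes were left out. The rule found 64 of the 33924 genes listed. They were 20 H2A, 19 H2B, 12 H3 and 13 H4 genes. Cluster 1 on chromosome 13 held 50 of them, cluster 2 on chromosome 3 held 10, cluster 3 on chromosome 11 held 3 and cluster 4 on chromosome 6 held 1.

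Total RNA came from the retinal pigment epithelium (RPE) and the adjoining choroid of C57BL/6J mice, an inbred strain, with no treatment named in the labels, as 3 young and 3 aged libraries. Each library held tissue of 2 eyes per the methods of the study, and each label names a separate mouse. Titles give 1 to 2 months for the young mice and 20 to 24 months for the aged ones, and another label gives 22 to 24 months for the latter, whereas the study states an older range for the young mice. All 6 mice are labelled male, although its methods name both sexes, so age and sex are known only this far. Ribosomal RNA was depleted and tailed RNA was not selected.

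Core histones form the nucleosome as pairs of H2A with H2B and of H3 with H4. Most of their genes are replication-dependent: they are short, lack introns, are transcribed mainly in S phase and yield mRNA that ends in a stem-loop instead of a poly(A) tail. The stem-loop is bound by Slbp and guides cleavage of the transcript. RPE cells of the adult eye rarely divide. Some histone genes, among them Hist1h2bc and Hist2h2be, are also known to give tailed mRNA in cells that have left the cell cycle.

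The stem-loop was searched in GENCODE transcripts as 16 bases that open with GG, hold TTT at the tip of the loop and close with the reverse complement of the first 6 bases. It stood 21 to 58 bases after the stop codon in 40 of the 64 genes, or 62.5%. Only exact matches were taken, and 12 genes have models that hold no base past the stop codon. A further 3 are pseudogenes. A gene without a match therefore cannot be said to lack the stem-loop. Of the 55450 annotated genes with a transcript, 79 held it (0.142%). There were 6 variants, shown once each as DNA letters with 5 flanking bases on each side and the stem-loop in capitals, because the variant separated H4 from the other families.
Hist1h2bg: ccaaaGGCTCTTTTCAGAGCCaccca
Hist1h3e: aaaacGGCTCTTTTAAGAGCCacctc
Hist2h2ac: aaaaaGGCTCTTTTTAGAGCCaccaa
Hist1h4c: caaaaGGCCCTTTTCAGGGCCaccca
Hist2h4: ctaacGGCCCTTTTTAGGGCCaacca
Hist1h4j: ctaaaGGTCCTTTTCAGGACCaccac
The first was shared by 23 H2A, H2B and H3 genes, the second by 5 H2B and H3 genes, and the third was found in Hist2h2ac alone. The fourth was held by 7 H4 genes, the fifth by 2 and the sixth by 2. The first 3 stems open with GGCTCT and the other three with GGCCCT or GGTCCT.

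Promoter windows of RefSeq (build GRCm38.p6, 250 bases before and 50 after the start) were matched for 56 of the 64 genes. Both strands were searched for TATAAA, for CCAAT, for the octamer ATTTGCAT, for CGGAC, the core of the site bound by Hinfp, and for TTTNGCGC, an E2F-type motif. No searched motif is contained in another. Below are the upstream stretches of 5 genes that later results turn on, with each match in capitals on either strand. They are the most significantly lower gene, the H2A partner of the one higher gene, the gene with the largest fall, the H4 gene with the largest fall and the H4 gene with the highest baseMean.
Hist1h2bg, chr13:23571221-23571395, plus strand: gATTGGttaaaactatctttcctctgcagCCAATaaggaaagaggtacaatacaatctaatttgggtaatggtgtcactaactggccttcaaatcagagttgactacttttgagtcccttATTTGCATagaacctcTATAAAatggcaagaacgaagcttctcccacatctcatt
Hist1h2ac, chr13:23683960-23684198, minus strand: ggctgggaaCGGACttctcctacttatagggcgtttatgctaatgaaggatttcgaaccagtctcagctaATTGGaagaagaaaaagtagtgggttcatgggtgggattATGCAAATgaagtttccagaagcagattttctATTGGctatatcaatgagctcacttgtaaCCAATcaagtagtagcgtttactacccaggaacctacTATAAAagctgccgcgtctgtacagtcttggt
Hist1h3d, chr13:23575513-23575762, plus strand: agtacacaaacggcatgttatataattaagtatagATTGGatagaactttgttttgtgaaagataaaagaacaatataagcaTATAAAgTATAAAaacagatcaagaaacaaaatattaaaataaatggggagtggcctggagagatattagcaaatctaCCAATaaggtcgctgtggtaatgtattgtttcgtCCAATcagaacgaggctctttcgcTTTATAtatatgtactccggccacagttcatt
Hist1h4m, chr13:21811496-21811745, plus strand: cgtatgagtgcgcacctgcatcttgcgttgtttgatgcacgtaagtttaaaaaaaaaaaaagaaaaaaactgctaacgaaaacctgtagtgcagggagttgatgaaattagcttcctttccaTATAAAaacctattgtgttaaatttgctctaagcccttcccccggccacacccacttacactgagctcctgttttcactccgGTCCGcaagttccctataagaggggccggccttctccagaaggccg
Hist1h4c, chr13:23698459-23698708, minus strand: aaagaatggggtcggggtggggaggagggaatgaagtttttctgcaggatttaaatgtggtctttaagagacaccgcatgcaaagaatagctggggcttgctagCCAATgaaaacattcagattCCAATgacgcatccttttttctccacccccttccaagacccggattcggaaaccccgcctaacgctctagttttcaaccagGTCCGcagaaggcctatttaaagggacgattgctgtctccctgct
CCAAT was in 44 of 44 H2A, H2B and H3 windows but in 3 of 12 H4 windows, and in 37.4% of all 32851 windows. CGGAC was in 12 of 12 H4, 8 of 18 H2A, 6 of 16 H2B and 1 of 10 H3 windows, against 23.4% of all windows. Some of the H2A and H2B matches lie in coding bases of an H2B gene, so not all of them are promoter sites. In the Hist1h2bf window the match follows the start codon. In the Hist1h2ae window it lies in coding bases of the oppositely transcribed Hist1h2bg. TATAAA was in 31 of the 56 (55.4%, against 13.6% of all). The octamer was in 7 H2A and 7 H2B windows (25.0% of the 56, against 1.74% of all), and no H3 or H4 window held these letters. The E2F-type motif was likewise in 7 H2A and 7 H2B windows, against 1.38% of all. Windows of neighbouring, oppositely transcribed genes overlap, so these counts are not of independent stretches.

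Most core histone RNAs had a lower value in aged RPE/choroid. The values are those of the authors' DESeq2 table, which gives for each gene a baseMean (normalized counts averaged over the 6 libraries), the standard error (SE) that belongs to each log2 fold change, and a p-value adjusted over all genes tested. It holds neither the values nor the depth of single libraries, so spread between mice enters only through the SE. A gene is called lower or higher where the adjusted p was under 0.05, with positive fold changes for a higher level in aged mice. Of the 64 genes, 54 were tested. Of these, 15 were called lower (27.8%) and 1 higher (1.85%). Over the 18636 genes tested in the whole table, 9.92% were called lower and 11.3% higher. A negative fold change was found for 49 of the 54 (90.7%), against 50.5% of the genes tested. Their median log2 fold change was -0.57, with a range from -1.24 to 0.43, and the median over the genes tested was -0.01. For core genes with a baseMean of at least 100 the median was -0.29. In this bulk tissue, fewer cells of a type and less RNA per cell cannot be told apart.

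The other 10 genes were given almost no signal. Hist2h2ab, Hist2h2aa1 and Hist1h2aj were listed at 0. Hist1h2bq, Hist1h2ao, Hist1h2ap, Hist1h2br, Hist1h2ba, Hist1h2aa and Hist1h2al had a baseMean between 0.148 and 0.920 and no adjusted p. Hist1h2ba and Hist1h2aa, a pair known from testis, were at 0.700 and 0.501. Nothing can be said of the direction of these 10 genes at such levels. Hist1h2aj and Hist1h2al are annotated as pseudogenes. Several of the others are near-copies of other genes. The share of 31-base stretches found in no other annotated gene was 0% for Hist2h2aa1 and 1.74% for Hist1h2bq. It was 6.22% for Hist1h2ao and 6.64% for Hist1h2ap. The part of the division of shared reads in these low values was not tested.

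The median SE of the 54 tested genes was 0.29, against 0.19 over the genes tested, and 35 of the 38 genes that were not called had a 95% interval that still held a log2 fold change of -0.5. At an unadjusted p under 0.05, 24 genes had a lower and 1 a higher value. The missing calls therefore do not show stable levels.

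**Figure D1:**
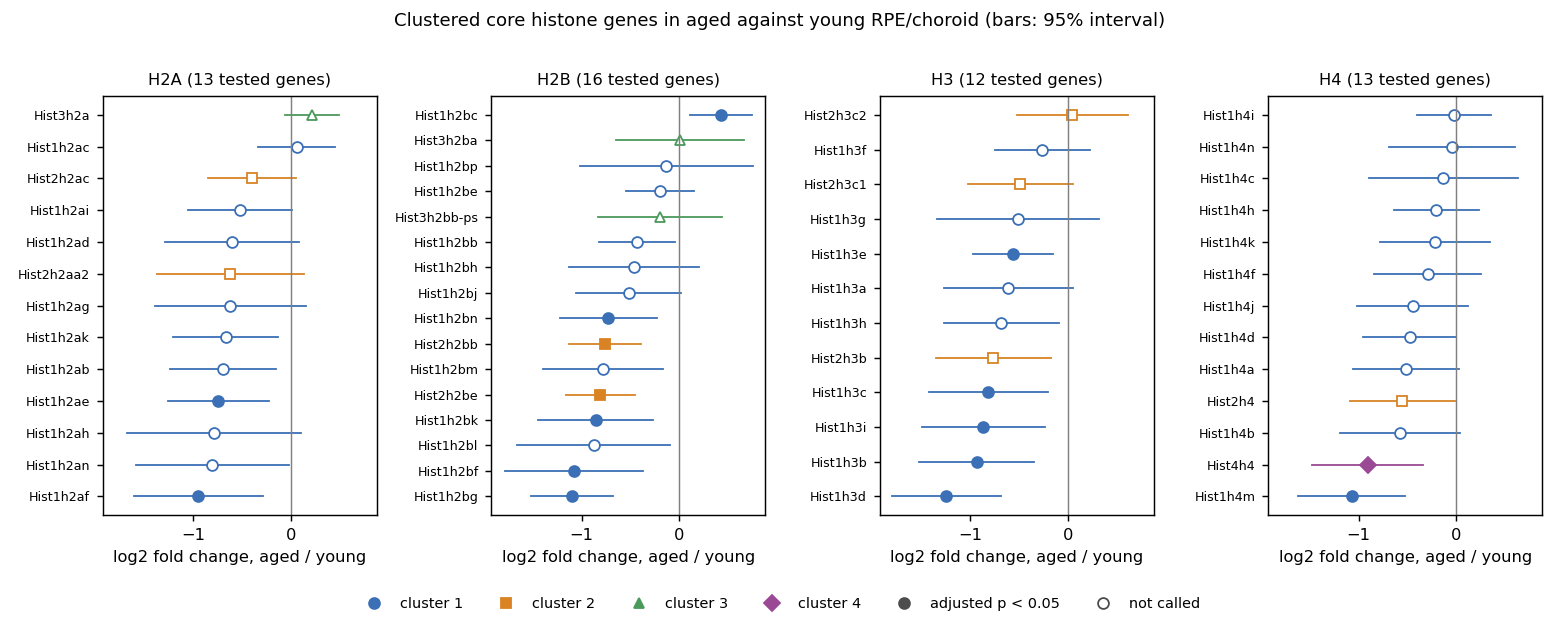
Log2 fold change, aged over young, of the 54 tested core histone genes (points) with 95% intervals (bars), in 1 panel per family and with symbols by cluster. Filled points are the 15 genes called lower and Hist1h2bc, the 1 called higher; all 13 H4 points lie left of 0, where negative values are lower in aged mice.

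H3 genes, whose tails carry many of the marks that distinguish active from silent chromatin, had 5 of 12 tested genes called lower. A negative value was found for 11 of the 12, with a median log2 fold change of -0.64. Hist1h3d fell most of all tested core genes, with an implied mean of 80.3 normalized counts in young and 33.9 in aged mice (log2 fold change -1.24 ± 0.28 SE, adjusted p from DESeq2 = 0.000187). Implied means were computed from the baseMean and the fold change, with equal groups of 3. Hist1h3b went from 72.5 to 38.0 (-0.93 ± 0.30). Hist1h3i went from 67.1 to 36.9 (-0.86 ± 0.32), and Hist1h3c from 125 to 71.0 (-0.81 ± 0.31), the weakest of the 15 calls, at an adjusted p from DESeq2 of 0.0436. Hist1h3e had the highest baseMean of the 5, with implied means of 385 against 261 (-0.56 ± 0.21). Hist1h3f, whose baseMean was nearly that of Hist1h3e, was not called, at 353 in young and 295 in aged mice (-0.26 ± 0.25). Hist1h3e shares 75.2% of its 31-base stretches with Hist1h3f, and 15.6% of them are found in no other annotated gene. The part of the division of shared reads in the values of Hist1h3e and Hist1h3f was not tested. The only positive value was that of Hist2h3c2 (0.05 ± 0.29), whose sign turned when fold changes were centred on abundant genes. Adjusting the DESeq2 p-values without the filter on low genes ended 3 of the 5 H3 calls, with an adjusted p of 0.0611 for Hist1h3c, 0.0517 for Hist1h3e and 0.0532 for Hist1h3i. The 5 were all among the 9 H3 genes of cluster 1, and none was among the 3 of cluster 2, where Hist2h3b missed the threshold (-0.76 ± 0.30, adjusted p from DESeq2 = 0.0519) and passed it after centring (adjusted p = 0.0181). That contrast between clusters was not tested.

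H2B genes held the largest number of calls and the only one upwards. Of 16 tested, 6 were lower and 1 was higher, and the median was -0.62. Hist1h2bg had the smallest adjusted p of the core genes, at 282 normalized counts in young and 132 in aged mice (-1.10 ± 0.21, adjusted p from DESeq2 = 5.3e-06). Hist1h2bf fell by a like amount from a lower level, 50.5 to 23.9 (-1.08 ± 0.36). Hist2h2be and Hist2h2bb, the 2 H2B genes of cluster 2, both fell. Hist2h2be went from 491 to 280 (-0.81 ± 0.18, adjusted p from DESeq2 = 0.000144). Hist2h2bb also went from 491, to 290 (-0.76 ± 0.19, adjusted p from DESeq2 = 0.000637). Hist1h2bk (-0.86 ± 0.30) and Hist1h2bn (-0.72 ± 0.25) fell as well.

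Hist1h2bc had the highest baseMean of the core histone genes and was the one called higher. Its implied mean was 1762 normalized counts in young and 2374 in aged mice, a rise of 34.8% (0.43 ± 0.16, adjusted p from DESeq2 = 0.0398). The call was lost when fold changes were centred on abundant genes (adjusted p = 0.165) and without the filter on low genes (adjusted p = 0.0558), both from the DESeq2 table's Wald values. Hist1h2be, second among H2B genes by baseMean, was not called, at 483 and 422 (-0.19 ± 0.18).

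H2A genes shared the downward values. Of 13 tested, 2 were lower (15.4%, against 9.92% over the genes tested). A negative value was found for 11, with a median of -0.62, close to that of H2B. Hist1h2af fell from 48.3 to 25.1 (-0.95 ± 0.34, adjusted p from DESeq2 = 0.0288) and Hist1h2ae from 95.8 to 57.4 (-0.74 ± 0.26, adjusted p from DESeq2 = 0.0273). The 2 H2A genes with the highest baseMean were not called and differed in sign. Hist3h2a was at 539 in young and 628 in aged mice (0.22 ± 0.14) and Hist2h2ac at 428 and 325 (-0.40 ± 0.23). Hist1h2ac had the other positive value (0.06 ± 0.20), which became negative after centring.

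H4 genes were negative without exception. Of the 13, 2 were called lower (15.4%, against 9.92% over the genes tested). Their median was the smallest in size of the 4 families, at -0.44, and no difference between families was tested. Hist1h4m fell from 145 to 69.0 (-1.07 ± 0.28, adjusted p from DESeq2 = 0.00141). It shares 91.7% of its 31-base words with Hist1h4n, which was at 125 and 122 (-0.04 ± 0.33, not called); the part of the division of shared reads in this fall was not tested. Hist4h4, the single gene of cluster 4, fell from 320 to 171 (-0.91 ± 0.29, adjusted p from DESeq2 = 0.0132). The 2 H4 genes with the highest baseMean were not called. Hist1h4c was at 1846 and 1688 (-0.13 ± 0.39), and Hist1h4d at 1687 and 1214 (-0.47 ± 0.24). Hist1h4i lay nearest to 0, at 315 and 311 (-0.02 ± 0.19).

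H4 genes were also measured with more error than genes of like abundance. For each tested core gene, its SE was ranked among tested genes with a baseMean within 1.5-fold. The median rank was the 91.2nd percentile for H4, against the 40.6th for H2A, the 63.0th for H2B and the 49.1st for H3. Above the 90th percentile lay 7 of the 13 H4 genes and 3 of the other 41. For Hist1h4c the SE was 0.39, where neighbours in abundance had a median of 0.14, which put it at the 98.8th percentile. Which libraries differed could not be read from the table.

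**Figure D2:**
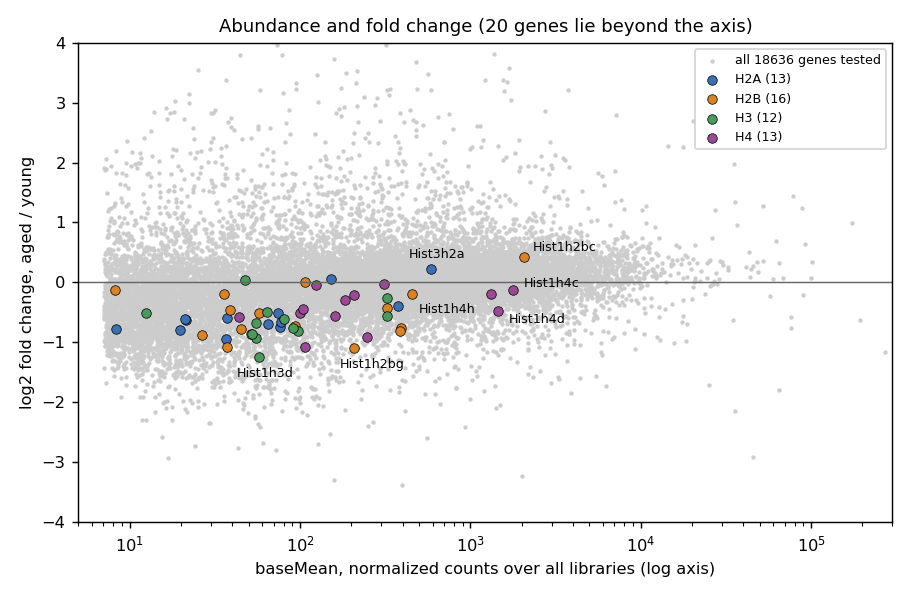
Log2 fold change, aged over young, against baseMean in normalized counts (log axis) for the 54 tested core histone genes, coloured by family, over the 18636 genes tested (grey, 20 of them beyond the axis). Hist1h2bc, Hist1h4c, Hist1h4d and Hist1h4h lie at the right, between -0.47 and 0.43, and most genes under 100 normalized counts lie below 0.

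The genes were next grouped by baseMean, with no test between the groups. The 4 with a baseMean of at least 1000 (Hist1h2bc, Hist1h4c, Hist1h4d and Hist1h4h, the last named after its value was seen) had none called lower. Of the 19 between 100 and 1000, 6 were lower and the median was -0.40. Of the 31 tested genes under 100, 9 were lower and the median was -0.68. Per kilobase of annotated transcript, the scale on which genes can be compared, Hist1h4h led with a baseMean of 2808 normalized counts, followed by Hist1h4c with 2155, Hist1h2bc with 1789 and Hist1h4d with 1274. These levels depend on annotated ends, which differ between near-identical genes.

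The summed core histone signal was 14379 normalized counts in young and 12147 in aged mice, lower by 15.5%, with no error that can be given. The 4 genes with the highest baseMean held 49.8% of it and differed by -3.02% as a sum (-10.98% after centring). Without Hist1h2bc alone, the sum of the other core genes differed by -22.5%. The other 60 genes differed by -26.5%. By family, the sum differed by -31.8% for H3, -18.7% for H4, -12.6% for H2A and -6.39% for H2B. After centring these were -37.5%, -25.4%, -19.8% and -13.9%. H4 held 46.2% of the signal and H2B 32.6%, although both have fewer members than H2A, which held 11.7%. Within cluster 1, summed H2B differed by 3.89%, because Hist1h2bc is part of it, and this sign turned to -4.50% after centring.

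**Figure D3:**
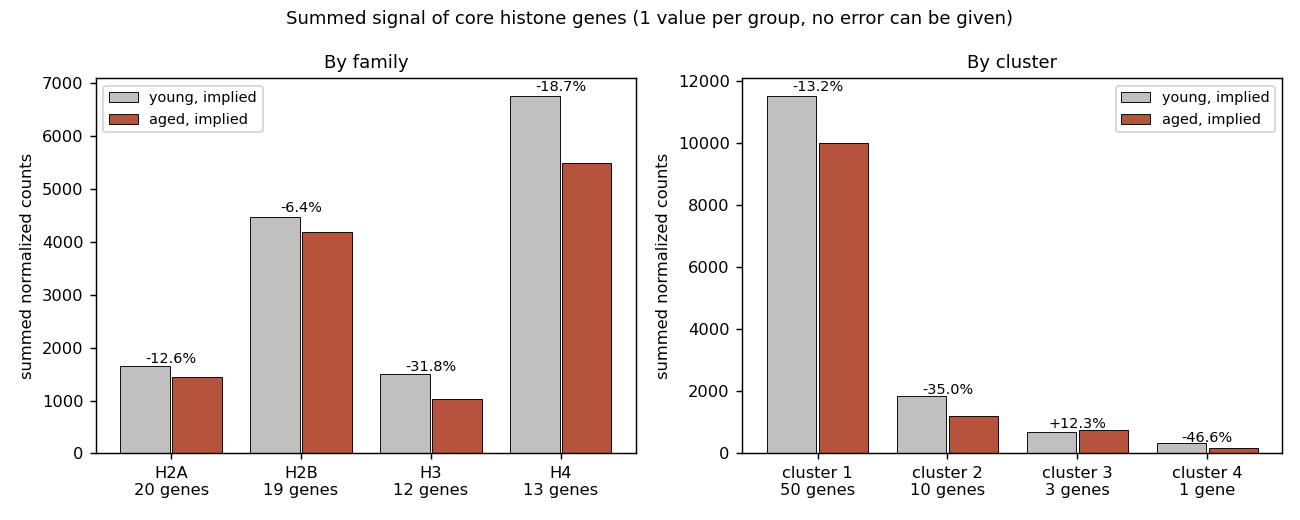
Summed normalized counts of core histone genes implied for young (grey) and aged (red) mice, by family (left) and by cluster (right), with bars from 0 and the percent difference above each pair. Cluster 3 is the only group shown with a higher sum in aged mice (12.3%, or 2.99% after centring); the table gives no value per library, so the bars carry no error.

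The clusters were compared by the same counts. Clusters 1 and 2 both had a median of -0.59, with 12 of 42 and 2 of 8 tested genes lower. Summed signal differed by -13.2% in cluster 1 and by -35.0% in cluster 2 (-20.3% and -40.4% after centring). Cluster 3 stood apart in value: none of its 3 genes was called, and their fold changes were 0.22 ± 0.14 for Hist3h2a, 0.01 ± 0.33 for Hist3h2ba and -0.20 ± 0.33 for the pseudogene Hist3h2bb-ps. Its median of 0.01 became -0.11 after centring, and the intervals of Hist3h2ba and Hist3h2bb-ps still held -0.5. Hist3h2a was the only one of the 3 measured well enough to leave out a fall of that size. Cluster 4 had the lowest median because Hist4h4 is its single gene.

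Within cluster 1, gaps over 100000 bases divide the genes into 5 groups along chromosome 13. The first group had 3 of 13 tested genes lower (median -0.68), the second 1 of 5 (-0.62) and the third, which holds 70.2% of all core histone signal, 8 of 24 lower and 1 higher (-0.54). The fourth group held only low genes. The fifth is a single low gene, the pseudogene Hist1h2al, which lies far from the others. It starts at base 51202727, whereas the fourth group ends at base 23934851. Values differed within a group, although no difference was tested. In the third group, Hist1h3d was the lowest of all tested core genes. Hist1h2ac and Hist1h2bc, further along the same group, were the 2 tested genes of cluster 1 above 0. After centring, Hist1h2ac was at -0.062 and Hist1h2bc was no longer called.

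**Figure D4:**
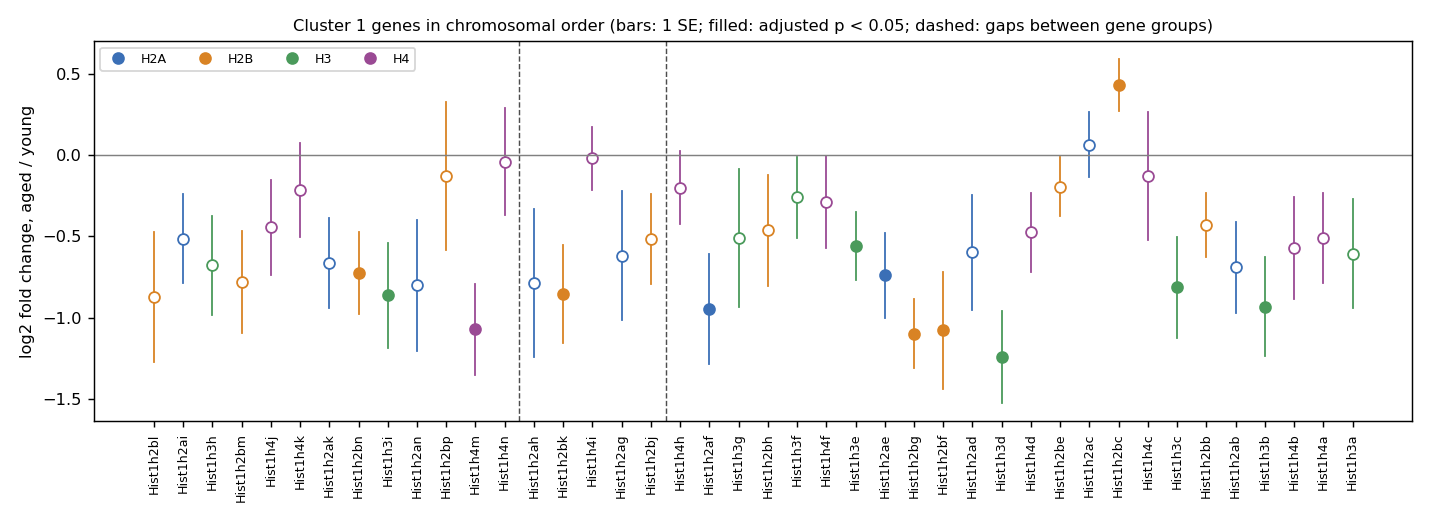
Log2 fold change, aged over young, of the 42 tested genes of cluster 1 in their order along chromosome 13, coloured by family, with bars of 1 SE and filled points for called genes; dashed lines mark gaps over 100000 bases. Negative values run through all 3 groups shown, and Hist1h2bc (0.43) and its neighbour Hist1h2ac (0.06) are the points above 0.

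H2A and H2B genes often face away from each other from a shared promoter. Such head-to-head pairs, with starts less than 500 bases apart, numbered 14, at distances from 172 to 305 bases, and both partners were tested in 10. Both had a negative value in 8 pairs. In 1 pair, Hist1h2ae and Hist1h2bg, 175 bases apart, both fell (-0.74 ± 0.26 and -1.10 ± 0.21). In 5 pairs 1 partner was called, each time the H2B gene. The H2A partners of the called Hist1h2bf, Hist1h2bn and Hist1h2bk were Hist1h2ad (-0.60 ± 0.35), Hist1h2ak (-0.66 ± 0.27) and Hist1h2ah (-0.79 ± 0.46), none of them called. In none of these 5 was the difference between partners tested. The partners' log2 fold changes lay 0.06 to 0.67 apart, with a median of 0.36, and the H2B value was the lower one in 7 of 10. Hist2h2be fell while Hist2h2ac, 238 bases away and of nearly the same baseMean (386 and 376), was not called. Among the 10 pairs with both partners tested, that of Hist1h2ac and Hist1h2bc was the only one with both values above 0, and only before centring.

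**Figure D5:**
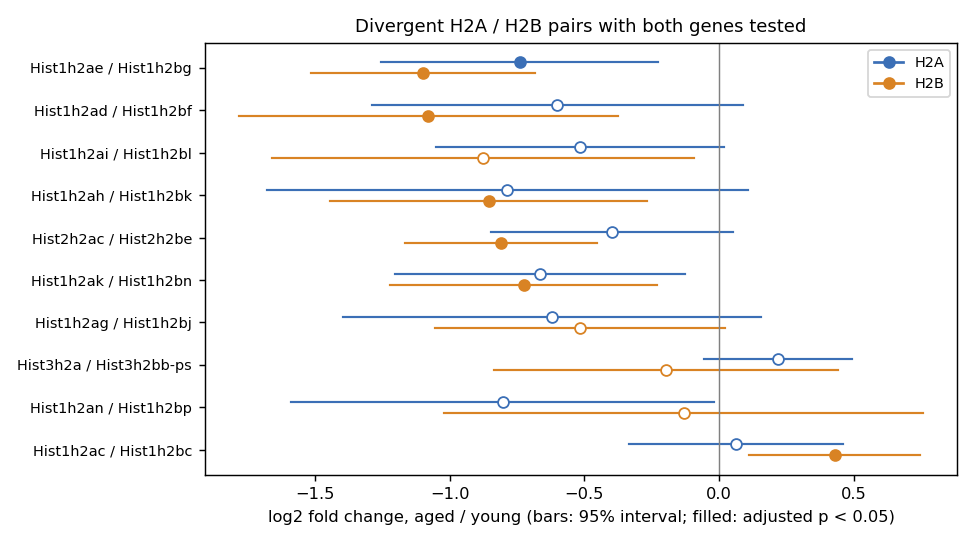
Log2 fold change, aged over young, with 95% intervals for the H2A (blue) and H2B (orange) gene of the 10 divergent pairs with both genes tested, filled where the adjusted p was under 0.05. Both points are left of 0 in 8 pairs; the intervals of the partners overlap in each of the 10.

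Annotated transcript ends were then set beside the values, since a gene with a long transcript can also yield tailed mRNA. Models that stop at the coding end or at most 60 bases past the stem-loop had 9 and 18 tested genes, each negative, with 3 and 4 of them lower and medians of -0.72 and -0.60. Models running further past the stem-loop had 19 tested genes, 6 of them lower, with 15 negative and a median of -0.46. Short models that run past the coding end and hold no stem-loop had 1 of 4 tested genes lower and a median of -0.77. The tested genes with a model over 100 bases past the stop codon but no stem-loop in it were Hist1h2bc, Hist2h2be and Hist1h4a. Their models run 742, 2192 and 154 bases past it. Of these, Hist1h2bc was higher, a call lost after centring and without the filter on low genes. Hist2h2be was lower and Hist1h4a was not called (-0.51 ± 0.28), so these genes did not share a sign. Whether tailed or untailed RNA was counted cannot be told apart in this table.

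Stem-loop variant and promoter letters were compared as descriptions. The main variant of H2A, H2B and H3 had 5 of 20 tested genes lower (median -0.60), and the main H4 variant, seen above in Hist1h4c, had 2 of 7 (median -0.29). Genes whose window held the octamer had a median of -0.72 (12 tested, 4 lower), and those without it -0.57 (36 tested, 10 lower). Genes with the E2F-type motif had a median of -0.78 (10 tested, 3 lower), against -0.51 without it (38 tested, 11 lower). The median baseMean was 36.9 normalized counts with it and 101.6 without it. Octamer and E2F-type motif were found only in H2A and H2B windows, so the genes without them include every H3 and H4 gene compared. With CCAAT, missing only from H4 windows, the median was -0.62, against -0.29 without it. Genes with CGGAC had a median of -0.46 and those without it -0.72. Of the 27 windows with it, 12 were those of H4 genes, and some H2A and H2B matches lie in coding bases. None of these promoter splits was compared within families. Hist1h2bc had no matched window and is in none of these counts.

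Core histone genes share much of their sequence. In 43 of the 64 genes, under 50% of the 31-base words of the transcript were unique, that is, found in no other annotated gene. For Hist2h2bb, Hist2h3b, Hist2h3c1, Hist2h2aa1 and Hist2h2aa2 no word was unique, so that reads of Hist2h2bb, which fell, and of Hist2h3b cannot be told apart from those of Gm20628, a transcript that holds both. The 35 tested genes with fewer unique words had 11 lower and a median of -0.66, and the other 19 had 4 lower, 1 higher and a median of -0.43. The 4 are Hist1h3d, Hist2h2be, Hist4h4 and Hist1h2ae. The authors estimated abundances with Sailfish at default settings, which shares such reads out by estimate, so values of single genes with few unique words are uncertain.

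Genes around the core histones were set beside them as counts. Of 15 factors of histone gene transcription and mRNA processing, 1 was lower (6.67%, against 9.92% over the genes tested). It was Npat, the coactivator of replication-dependent histone genes (-0.38 ± 0.14, adjusted p from DESeq2 = 0.0400). The stem-loop binding protein gene Slbp was not called (-0.15 ± 0.16), nor was Hinfp, the H4 gene activator (-0.37 ± 0.17), and the median of the list was 0.02. Of 20 S phase and proliferation genes, Top2a (-0.56 ± 0.19) and Ccne2 (-0.69 ± 0.24) were lower, or 10%, close to the 9.92% over the genes tested; 15 were negative, and the median was -0.21. Linker genes of the same clusters had 2 of 5 tested lower, Hist1h1e (-0.81 ± 0.17) and Hist1h1d (-0.73 ± 0.18), with a median of -0.48. Of the replacement variants, which are made outside S phase and have tailed mRNA, neither tested gene was called: H3f3a at -0.29 ± 0.14 and H2afz at 0.01 ± 0.16. H3f3b had no p-value (-0.13 ± 0.13).

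Other short RNA without tails was mostly below 0 as well. Of 41 tested snRNA and snoRNA genes, which serve splicing and RNA modification, matched by symbol to GENCODE, 40 had a negative value, with a median of -0.63, near the -0.57 of the core histones. The 4 called lower were 9.76% of them, near the 9.92% over the genes tested. The median was 0.03 over 13973 tested protein-coding genes and -0.40 over 293 long intergenic RNA genes. Marker lists of cell types gave the following. Of 6 tested macrophage markers 4 were higher and 1 lower, with an implied sum of 9509 normalized counts in young and 20141 in aged mice. Lyz2, on the same list, had no p-value and is not in these sums, and with it they were 13783 and 93009. Of 5 lymphocyte markers 2 were higher, with sums of 963 and 3578. Of 5 fibroblast markers 3 were lower and 1 higher, with sums of 283436 and 113750. RPE markers had 2 of 8 higher and 1 lower, with sums of 337655 and 384446, rod markers, from the retina that was removed, had 0 of 6 called, with sums of 81327 and 97595, and endothelial markers had 1 of 4 tested lower, with sums of 11801 and 12368 over these 4. No marker was at 0, and sums per library could not be had. The part of these RNA classes and cell types in the lower core histone values was not tested.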

How the data were processed

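Per the labels and the methods of the study, the authors used BBDuk to trim the total RNA reads, STAR to map them on GRCm38 Ensembl transcripts and Sailfish to estimate abundances, then compared 3 young with 3 aged libraries in DESeq2. The deposited table gives for each gene a baseMean (normalized signal averaged over 6 libraries), the log2 fold change, its SE, a Wald score, a p-value and an adjusted p-value, all computed by the authors. These are columns of their own comparison and hold 0 values per library, so the depth of each library is not given in the table and no count test could be run in their place. The direction of the sign is not stated in the table. It was taken from the numbers of higher and lower genes in the study, and the sign was reversed so that positive is higher in aged mice; each direction above depends on this. The median SE was 0.24 at a baseMean under 2 and 0.43 for tested genes under 30, and the largest was 0.46. An SE that drops at the lowest counts is a mark of fold changes shrunken towards 0, so changes of low genes and differences between implied group means are probably understated, although no source states the shrinkage.

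Members and lists were chosen with earlier results of these data known. Genes named are those called, the 2 of each family with the highest baseMean, the largest rise and fall in each family and in clusters 2 to 4, and their divergent partners. Hist1h4h, Hist1h4n, Hist1h4a, Hist1h4j, Hist2h4, Hist2h3b, Hist2h3c1, Hist2h2aa2, Hist3h2ba and the genes without an adjusted p were named outside this rule, after their values were seen. GENCODE M21, a later release than that of the authors, gave positions, stem-loops and words; RefSeq GRCm38.p6 gave promoters. No RefSeq promoter was matched for Hist1h3f, Hist1h3a, Hist3h2bb-ps, Hist2h2be, Hist1h2aj, Hist1h2al, Hist2h4 and Hist1h2bc. Biotypes were matched for 28553 of 33924 symbols. Python 3.11.15, pandas 2.3.3 and scipy 1.17.1 were used.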

Additional observations from a re-analysis of the deposited data

How the results depend on the processing

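Of the 54 tested genes, 16 were called at the chosen threshold. An adjusted p under 0.01 left 5, a log2 fold change of at least 1 in size beside the threshold left 4, adjustment over genes with a baseMean of at least 100 alone left 7 of 23 members, and members with at least 50% of their words unique held 5 of 19; both of the latter have fewer genes by construction. Adjustment without a filter on low genes left 12, without Hist1h2bc, Hist1h3c, Hist1h3e and Hist1h3i. Centring on the 4547 tested genes with a baseMean of at least 1000, whose median log2 fold change was 0.13, gave 21 genes, each lower, of which 15 were shared with the 16. It turned the sign of the cluster 3 median (-0.11) and of Hist1h2ac (-0.062), Hist2h3c2 (-0.077) and Hist3h2ba (-0.11), none of them called. The median of the tested members stayed between -0.69 and -0.29, and the difference in summed signal between -26.5% and -15.5%; the sum without the 4 genes of highest baseMean was chosen after seeing the data.

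No paired analysis was possible because no library has values of its own in the table and the replicate numbers of the labels name different mice. For the same reason, leaving out each library, another normalization and edgeR were not run, and what depth limits is known only through the SE.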
